A study of Mus musculus with 8 samples.

Results

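Expression of the proteasome was examined in bulk RNA from MC38 tumors that had or had not been exposed to violet light. The genes were all those of the count table whose symbol began with Psm, a letter from a to g and a digit, and that held at least 80 raw counts over the 8 tumors. Of 24421 genes in the table, 50 symbols matched and 48 reached the minimum. Psma8 with 43 counts and Psmb11 with 2 counts, which encode testis and thymus forms of subunits, did not. The 48 genes comprised 31 constitutive subunits, 5 genes of the immunoproteasome, 7 assembly factors, 3 other regulators and 2 genes that matched by symbol only. The latter were Psmc3ip, which encodes a partner of meiotic recombinases rather than a subunit, and Psme2b, a retrocopy of Psme2 whose reads may be split with its parent gene.

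The proteasome degrades proteins marked with ubiquitin. Its barrel-shaped 20S core is made of outer rings of alpha subunits, which gate the entry, and inner rings of beta subunits, of which Psmb6 (beta1), Psmb7 (beta2) and Psmb5 (beta5) are catalytic. The 19S cap, with ATPase (Psmc) and non-ATPase (Psmd) subunits, binds and unfolds substrates. Interferon gamma induces Psmb9, Psmb10 and Psmb8, which replace the 3 constitutive catalytic subunits in newly built cores, and also Psme1 and Psme2, the subunits of a proteasome activator. The resulting immunoproteasome helps to generate peptides for presentation on MHC class I, and in tumors its genes are expressed by infiltrating leukocytes as well as by tumor cells exposed to interferon.

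The MC38 line was derived from a colon adenocarcinoma of a C57BL/6 mouse. Kaede mice express a fluorescent protein that switches from green to red under violet light, so that cells present in a tumor at the time of exposure can be recognized later. Both groups were 9-wk-old female Kaede mice on the C57BL/6 background that had received 250000 MC38 cells and carried tumors of about 5 mm on day 10. Tumors of the photoconverted group (n = 4) were exposed to 405-nm light for 3 min and collected 5 h later, and tumors of the non-photoconverted control group (n = 4) were not exposed. The whole tumor was the sample, so tumor cells, stroma and leukocytes were measured together, and fewer cells of a type cannot be told apart from less RNA per cell. The comparison asks whether the labeling light itself changed proteasome transcripts within hours.

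Total counts per tumor ranged from 16735293 to 35844417 in photoconverted and from 12576615 to 29439901 in control tumors. Photoconverted tumor 4 and control tumors 2 and 4 gave more than 10% of their counts to Rn45s, the ribosomal RNA precursor (21.9% to 35.7%), and the other 5 libraries gave 2.70% to 9.65%. In control tumor 2 the collagen genes Col1a1, Col1a2 and Col3a1 measured 4607, 2585 and 5063 CPM (counts scaled to a common library size), above all other tumors. These 3 genes made up most of the summed level of 8 fibroblast and endothelial markers, which was 12492 CPM there and 3297 to 4744 CPM elsewhere, whereas Dcn, Pdgfra, Pecam1, Cdh5 and Kdr of that list did not exceed their range in the other tumors. The summed level of 18 leukocyte markers was 385 to 809 CPM in photoconverted tumors and 277 to 705 CPM in the controls. Among these 18 genes 8 changes were above 0 and 10 below, and their median was −0.09 on the log2 scale. S100a8 and S100a9 of that list, made by neutrophils and monocytes, were called higher in photoconverted tumors by DESeq2 (adjusted p = 0.0498 and 0.0278). Over all 8 tumors edgeR called neither (adjusted p = 0.999 for both). In the 5 tumors with Rn45s shares under 10% edgeR called both higher (adjusted p = 0.0266 and 0.0195). Photoconverted tumor 4, which is not among those 5, measured 1.37 and 2.60 CPM, inside the control range. Skeletal muscle markers (10 of 10 higher, median log2 change 1.11) summed to 191 to 1584 CPM in photoconverted tumors and 190 to 467 CPM in the controls. Skin markers (4 of 4 tested higher, median 1.72) summed to 2.39 to 12.6 against 1.71 to 2.81 CPM. None of these muscle and skin genes passed edgeR's test. The highest sums were those of photoconverted tumors 2 and 3 (802 and 1584 CPM for muscle, 10.9 and 12.6 CPM for skin). Photoconverted tumor 4 lay inside the control range for both lists (191 and 2.39 CPM). The part of the leukocyte, muscle and skin lists in the proteasome results was not tested. Of 7 colon epithelial markers, only 3 passed the expression filter, and their sum stayed between 2.14 and 5.24 CPM, so the labeled line was not recognizable by these markers. Because these libraries were unevenly spread over the groups, the main changes are also given without control tumor 2 or for the 5 tumors with low Rn45s shares.

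The upstream regions of 3 genes show the sequence context of an inducible catalytic subunit (Psmb8), its constitutive counterpart (Psmb5) and an activator subunit (Psme1). Each window covers 300 bases around the annotated RefSeq start in GRCm38.p6, most of them upstream, and is written 5′ to 3′ on the strand of the gene. Psmb8 lies on the plus strand at chr17:34197945-34198244, Psmb5 on the minus strand at chr14:54617946-54618245 and Psme1 on the plus strand at chr14:55578244-55578543. The windows of Psmb8 and Psme1 fall inside the GENCODE gene, which also includes starts further upstream. Capitals mark a gamma-activated site, TTCNNNGAA, in Psmb8, an antioxidant response element core, TGACNNNGC, in Psmb5, and an interferon-stimulated response element core, GAAANNGAAA read on the other strand, in Psme1.
Psmb8: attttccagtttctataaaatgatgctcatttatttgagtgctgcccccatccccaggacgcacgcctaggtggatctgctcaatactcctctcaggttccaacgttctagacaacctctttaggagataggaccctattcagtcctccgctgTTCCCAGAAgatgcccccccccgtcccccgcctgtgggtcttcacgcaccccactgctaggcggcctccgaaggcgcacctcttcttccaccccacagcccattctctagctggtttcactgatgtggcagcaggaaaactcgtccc
Psmb5: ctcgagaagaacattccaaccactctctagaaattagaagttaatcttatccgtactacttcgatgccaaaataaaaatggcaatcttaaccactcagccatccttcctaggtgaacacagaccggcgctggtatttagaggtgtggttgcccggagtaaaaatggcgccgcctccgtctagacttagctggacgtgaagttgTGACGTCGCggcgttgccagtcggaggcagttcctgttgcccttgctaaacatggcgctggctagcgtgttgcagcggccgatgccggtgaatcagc
Psme1: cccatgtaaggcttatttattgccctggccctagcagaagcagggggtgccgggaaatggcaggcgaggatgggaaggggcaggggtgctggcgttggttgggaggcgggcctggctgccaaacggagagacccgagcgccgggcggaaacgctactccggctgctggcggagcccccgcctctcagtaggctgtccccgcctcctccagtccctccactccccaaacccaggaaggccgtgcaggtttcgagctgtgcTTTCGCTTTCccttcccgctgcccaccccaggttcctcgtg

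Windows were found for 41 of the 48 genes and motifs were searched on both strands. The interferon-stimulated response element core was present in 5 of 41 (12.2%) against 3.98% of 26994 genes with a window, and among the 5 immunoproteasome genes only Psme1 held it. The gamma-activated site was present in 3 of 41 (7.32%) against 9.55% of all genes, and the only immunoproteasome gene with it was Psmb8. The antioxidant response element core was present in 6 of 41 (14.6%) against 14.0% of all genes, with Psmb5 and Psmb6 among the 6. The CCAAT box was present in 14 of 41 (34.1%) against 41.0%, and the heat shock element GAANNTTCNNGAA in 0 of 41 against 0.663%. The share was thus higher than that of all genes for the interferon-stimulated response element core and close to it for the antioxidant response element core. For the other motifs it was lower. These differences were not tested, and a match describes the letters only.

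No proteasome gene differed between photoconverted and control tumors at an adjusted p of 0.05. All 48 passed the expression filter and were tested together with the other genes by edgeR's quasi-likelihood test, in which 0 of 14468 genes (0.0%) were called. At an unadjusted p under 0.05, 1 of 48 proteasome genes passed (Psma1) beside 2.23% of all genes. Changes ranged from −0.22 to 0.27 on the log2 scale with standard errors of 0.10 to 0.33, and the smallest adjusted p among the 48 genes was 0.999. DESeq2 called 24 genes in the whole table of 24421 and none of the 48. At an unadjusted p under 0.05 DESeq2 passed 1 of the 48, a count for which no share over all genes is given. The direction leaned upward, with 31 genes higher and 17 lower in photoconverted tumors and a median change of 0.04, where 46.8% of all genes were above 0 and their median was −0.01. The 48 genes together took 0.727% ± 0.0291 of all counts outside Rn45s in the photoconverted group and 0.717% ± 0.0308 in the control group (SD, n = 4).

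**Figure D1:**
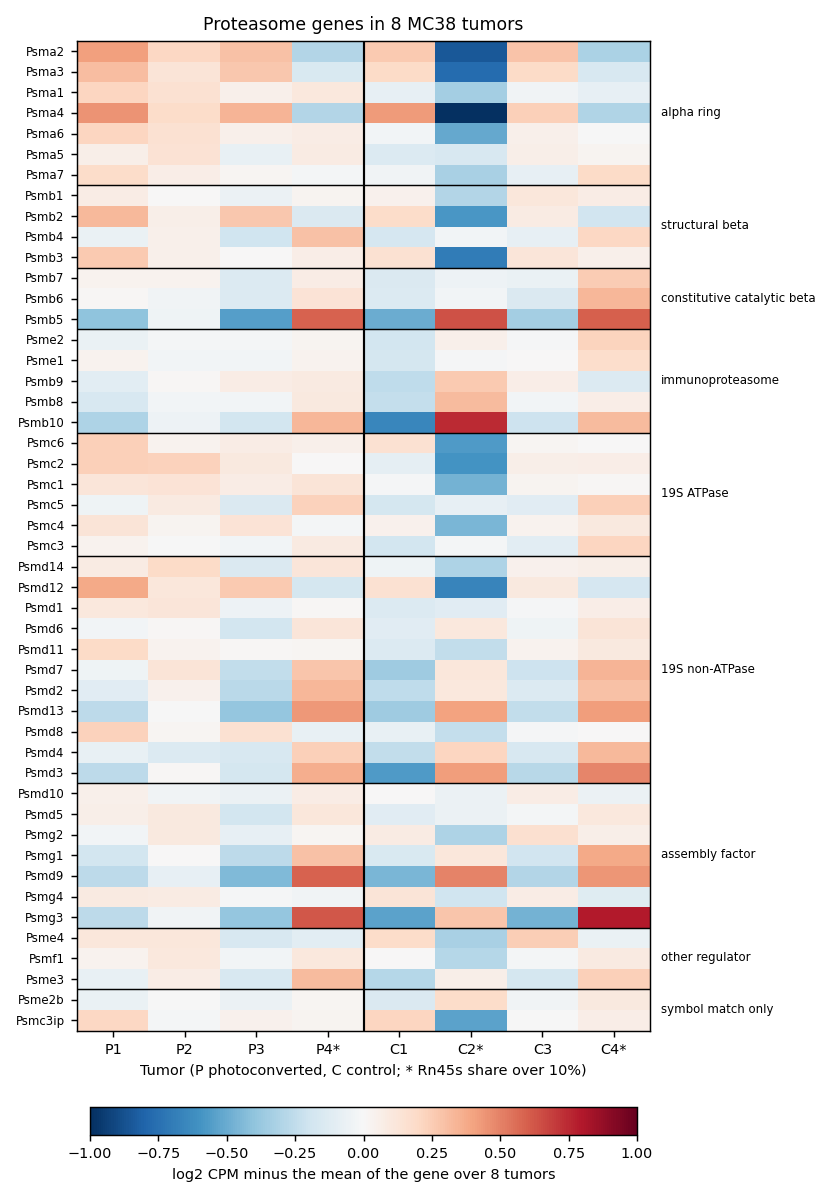
Heatmap of 48 proteasome genes (rows, by class and, within a class, by rising GC content) in 8 tumors (columns). The color gives log2 CPM minus the mean of the gene over the 8 tumors, limited to a range of 1 in each direction, and stars mark libraries with an Rn45s share over 10%. Control tumor 2 is the lowest of all tumors in 24 of 48 genes. They include the whole alpha ring and some of the ATPases, structural beta subunits, non-ATPase subunits and assembly factors.

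The immunoproteasome genes differed between the groups by less than the spread between tumors. Psmb8, the inducible beta5 subunit, measured 196, 215, 215 and 234 CPM in photoconverted tumors 1 to 4 and 185, 272, 215 and 229 CPM in the controls 1 to 4. The control values enclosed the photoconverted values, and the log2 change was −0.07 ± 0.14 (SE; edgeR, adjusted p = 0.999). Psmb9, the inducible beta1 subunit, measured 73.2, 79.6, 82.7 and 83.8 CPM in photoconverted tumors and 66.1, 94.5, 82.3 and 71.5 CPM in the controls. Its lowest and highest values were again both in control tumors, with a change of 0.02 ± 0.13 (SE). Psmb10, the inducible beta2 subunit, measured 238, 285, 260 and 372 CPM in photoconverted tumors and 188, 495, 255 and 367 CPM in the controls. Control tumor 2 stood highest, and the change of −0.18 ± 0.29 (SE) became 0.10 without it. In both groups the libraries with an Rn45s share over 10% held the highest Psmb10 values.

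The activator subunits were the steadiest of these genes. Psme1 measured 218, 209, 210 and 218 CPM in photoconverted tumors and 188, 212, 213 and 241 CPM in the controls. Psme2 measured 148, 153, 153 and 158 CPM in photoconverted tumors and 136, 161, 153 and 181 CPM in the controls. For both genes the 4 photoconverted values fell inside the range of the controls, and the changes were 0.00 ± 0.11 and −0.04 ± 0.11 (SE). The median change of the 5 genes was −0.04, with 2 higher and 3 lower. Among the 5 tumors with low Rn45s shares, all 5 genes were higher after photoconversion, with a median of 0.08, beside 50.5% of all genes above 0. None of the 48 genes was called in those 5 tumors (smallest adjusted p = 0.501, edgeR), beside 0.275% of 15252 genes tested.

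**Figure D2:**
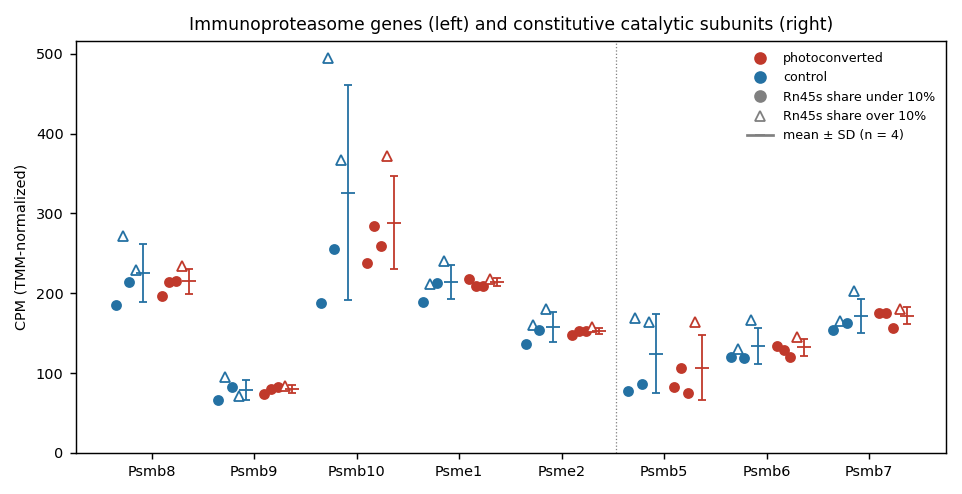
CPM (vertical axis, from 0) of the 5 immunoproteasome genes and the 3 constitutive catalytic subunits in each tumor, with control tumors in blue and photoconverted tumors in red, open triangles for libraries with an Rn45s share over 10%, and bars for mean ± SD (n = 4). The groups overlap for all 8 genes, and Psmb10 and Psmb5 are highest in the open triangles, for example 495 CPM of Psmb10 in control tumor 2.

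None of the constitutive catalytic subunits passed the test. Psmb5 (beta5) measured 82.6, 106, 74.5 and 164 CPM in photoconverted tumors and 77.3, 170, 86.2 and 164 CPM in the controls. The 3 values of 164 to 170 CPM were those of the libraries with the highest Rn45s shares, and the change was −0.22 ± 0.33 (SE), the lowest of all 48 genes. It became −0.03 without control tumor 2, −0.51 without photoconverted tumor 4 and 0.10 in the 5 tumors with low Rn45s shares. Psmb6 (beta1) measured 134, 129, 120 and 146 CPM in photoconverted tumors and 120, 130, 119 and 166 CPM in the controls. Psmb7 (beta2) measured 175, 175, 156 and 180 CPM in photoconverted tumors and 155, 165, 163 and 203 CPM in the controls. Both pairs of groups overlapped, and the changes were −0.02 ± 0.14 and 0.00 ± 0.12 (SE). Exons of Psmb7 overlap Nek6 on the opposite strand over 405 bases, and those of Psmb9 overlap Tap1, also on the opposite strand, over 212 bases. Psmb5 shares 109 exon bases with Mir686 on the same strand, which a strand setting cannot separate. Whether the counting used strand is not given in the sources used here.

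The balance between inducible and constitutive forms at each catalytic site was compared within tumors, where library scaling cancels. The log2 ratio of Psmb8 to Psmb5 counts was 1.25, 1.02, 1.53 and 0.51 in photoconverted and 1.26, 0.68, 1.32 and 0.48 in control tumors. Mean ratios were 1.08 ± 0.43 and 0.93 ± 0.42 (SD, n = 4), a difference of 0.14 that was smaller than the spread (two-sided exact permutation test over 70 arrangements, p = 0.657) and became −0.02 in the 5 tumors with low Rn45s shares. The low ratios belonged to the libraries rich in Rn45s in both groups. The Psmb9 to Psmb6 ratio was −0.72 ± 0.14 in photoconverted and −0.77 ± 0.35 in control tumors (SD, n = 4; exact permutation p = 0.857). The Psmb10 to Psmb7 ratio was 0.73 ± 0.25 and 0.84 ± 0.55 (SD, n = 4; exact permutation p = 0.771), and its difference of −0.11 became 0.14 without control tumor 2. Adjusted over the 3 pairs, each exact permutation p was 0.857, and the smallest p that 70 arrangements allow is 0.0286. The ratios of all 3 sites therefore overlapped between the groups.

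Per transcript length, the inducible form made up 53.8% ± 7.36 of the Psmb8 and Psmb5 level in photoconverted and 51.3% ± 7.18 in control tumors (SD, n = 4). At the beta1 site the share of Psmb9 was 26.4% ± 1.95 and 25.9% ± 4.49. At the beta2 site the share of Psmb10 was 59.5% ± 4.12 and 61.0% ± 8.70. Inducible transcripts thus formed a large part of the catalytic pool in all 8 tumors, from 20.3% at beta1 to 72.6% at beta2, whether or not the tumor had been exposed to light. The 3 libraries with high Rn45s shares differed from the other 5 by −0.72 in the log2 ratio of Psmb8 to Psmb5, by −0.12 in that of Psmb9 to Psmb6 and by 0.60 in that of Psmb10 to Psmb7. These gaps between libraries exceeded the differences between the groups at each site, and their part in the comparison was not tested.

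**Figure D3:**
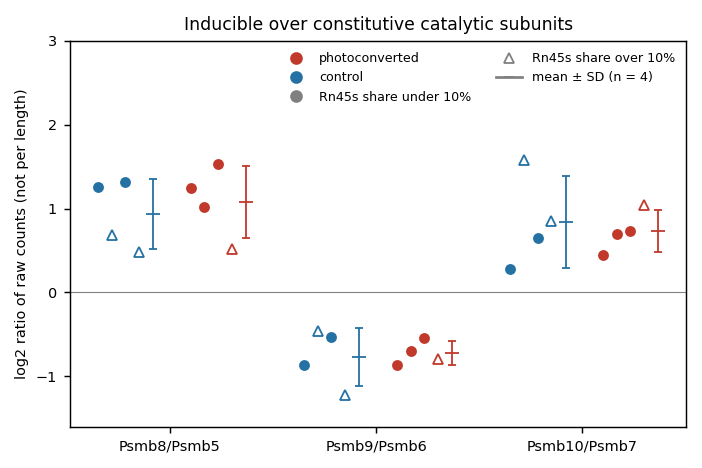
log2 ratio of raw counts (vertical axis, not per length) of the inducible to the constitutive subunit at the 3 catalytic sites in each tumor, with bars for mean ± SD (n = 4) and open triangles for libraries with an Rn45s share over 10%. The groups overlap at every site, with exact permutation p of 0.657, 0.857 and 0.771.

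Among the constitutive subunits, those of the alpha ring and the 19S ATPases leaned toward higher values in photoconverted tumors. All 7 alpha subunits were higher, by 0.10 to 0.26 on the log2 scale with a median of 0.24, and all 6 ATPases were higher with a median of 0.15. The 4 structural beta subunits had a median of 0.10 and the 11 non-ATPase subunits one of 0.04 with 6 higher. None of these changes passed the adjusted threshold. Without control tumor 2 the medians were 0.07 for the alpha ring and 0.04 for the ATPases, and in the 5 tumors with low Rn45s shares they were 0.08 and 0.11. Over all 31 constitutive subunits the median fell from 0.12 to 0.05 without control tumor 2, and 23 were higher in either case. In the 5 tumors with low Rn45s shares all 17 subunits of the 19S cap and 40 of the 48 genes were higher, with a median of 0.12 for the cap, where the median of all genes was 0.00. The lean of the alpha ring and the ATPases was thus much smaller without control tumor 2, though all 7 and all 6 genes stayed higher. Without control tumor 4 the medians were 0.20 and 0.19, and without photoconverted tumor 4 they were 0.27 and 0.17.

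Psma1, which encodes an alpha subunit, had the smallest p of all 48 genes. It measured 129, 124, 116 and 120 CPM in photoconverted tumors and 106, 88.3, 109 and 106 CPM in the controls. The groups did not overlap, and the log2 change was 0.26 ± 0.11 (SE; edgeR, unadjusted p = 0.0363, adjusted p = 0.999). Psma6, another alpha subunit, measured 120, 115, 107 and 109 CPM in photoconverted tumors and 101, 72.4, 107 and 103 CPM in the controls, a change of 0.23 ± 0.14 (SE). The highest control and the lowest photoconverted tumor nearly met, at 106.8 and 106.9 CPM. Psmc1, an ATPase of the 19S base, measured 143, 144, 139 and 144 CPM in photoconverted tumors and 130, 94.7, 134 and 132 CPM in the controls, a change of 0.21 ± 0.13 (SE). These 3 of the 48 genes had all 4 photoconverted values above the controls, beside 0.684% of all genes, and 0 of 48 had them all below, beside 0.643%. In the deposited normalized values 2 of the 48 did not overlap, a count for which no share over all genes is given. Without control tumor 2 the changes of Psma1, Psma6 and Psmc1 were 0.20, 0.12 and 0.11. In the same-numbered pairs of tumors, 9 of the 48 genes were higher in photoconverted tumors in all 4 pairs, beside 7.2% of all genes.

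The other constitutive subunits with small p overlapped between the groups. Psmc2, an ATPase, measured 97.7, 97.2, 88.6 and 83.1 CPM in photoconverted tumors and 78.0, 54.7, 86.6 and 86.8 CPM in the controls (log2 change 0.26 ± 0.16, SE). Psmd12, a lid subunit, measured 119, 98.6, 109 and 80.8 CPM against 101, 57.7, 97.7 and 81.1 CPM (0.27 ± 0.19, SE). Psmd8, also of the lid, measured 142, 123, 135 and 115 CPM against 115, 103, 120 and 121 CPM (0.16 ± 0.11, SE). Control tumor 2 was the lowest tumor for all 3 genes. Psmb2, a structural beta subunit, measured 93.3, 77.7, 90.0 and 67.4 CPM against 84.5, 49.8, 79.0 and 65.3 CPM (0.24 ± 0.18, SE). Psma3 of the alpha ring measured 113, 99.6, 110 and 82.1 CPM against 104, 53.4, 104 and 81.6 CPM (0.24 ± 0.21, SE). For Psmb2 and Psma3 the 3 libraries rich in Rn45s were the lowest in their groups. Without control tumor 2 the changes were 0.13 for Psmc2, 0.12 for Psmd12, 0.11 for Psmd8, 0.11 for Psmb2 and 0.07 for Psma3. In the 5 tumors with low Rn45s shares they were 0.20, 0.13, 0.18, 0.09 and 0.05 in the same order.

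**Figure D4:**
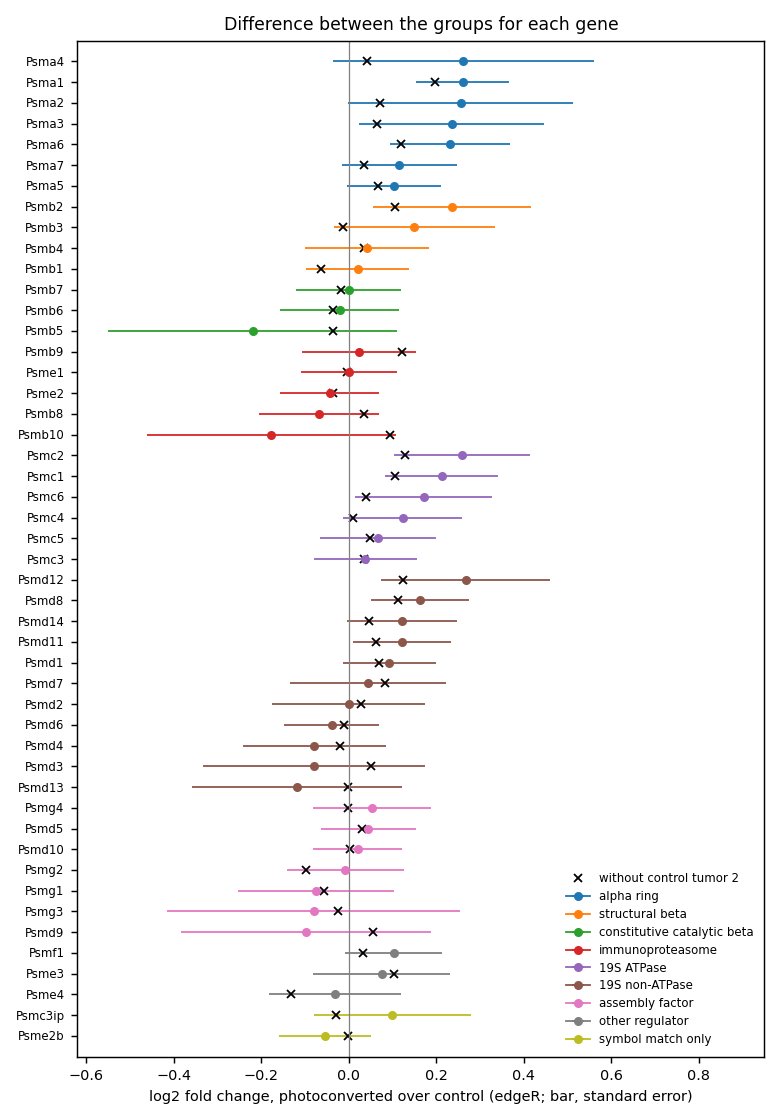
log2 fold change of photoconverted over control tumors (horizontal axis) for each of the 48 genes, colored by class, with the standard error as a bar and a cross for the value without control tumor 2. The alpha ring and the 19S ATPases sit to the right of 0, with medians of 0.24 and 0.15, and the crosses lie nearer to 0, with medians of 0.07 and 0.04.

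Assembly factors help to build the core and the base and then leave or stay outside the mature particle. Their changes were smaller than their standard errors, and none passed the test. The 7 genes changed by −0.10 to 0.05 on the log2 scale, with a median of −0.01, 3 higher and 4 lower. The standard errors ran from 0.10 in Psmd10 to 0.33 in Psmg3. Psmd10, a chaperone of the base, measured 31.7, 29.9, 29.4 and 32.3 CPM in photoconverted tumors and 30.6, 29.3, 32.2 and 29.4 CPM in the controls, the smallest ratio between highest and lowest tumor of all 48. Psmd5, another base chaperone, measured 123, 126, 104 and 127 CPM against 109, 113, 117 and 127 CPM. Both genes overlapped fully between the groups. Psmd9, also a base chaperone, measured 36.0, 40.8, 31.7 and 65.0 CPM in photoconverted tumors and 31.3, 60.8, 35.3 and 58.5 CPM in the controls. Psmg3, a core chaperone, measured 20.4, 23.8, 18.7 and 37.7 CPM against 16.9, 29.7, 17.7 and 42.4 CPM. For both genes the highest values were those of the 3 libraries rich in Rn45s. The core chaperones Psmg1, Psmg2 and Psmg4 ranged from 20.2 to 31.4, from 18.5 to 25.6 and from 10.9 to 13.7 CPM over the 8 tumors, with overlapping groups.

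Among the other regulators, Psme3, a nuclear activator, averaged 198 ± 29.3 CPM in photoconverted tumors and 188 ± 31.0 CPM in the controls. Psme4, an activator linked to acetylated histones, averaged 260 ± 25.8 and 265 ± 45.8 CPM, and Psmf1, an inhibitor of the core, 49.4 ± 2.17 and 46.0 ± 4.93 CPM (SD, n = 4). The groups overlapped for all 3. Psme2b followed its parent gene with a change of −0.05 ± 0.11 (SE), and Psmc3ip changed by 0.10 ± 0.18 (SE).

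Levels were compared between genes only per transcript length, as TPM, counts divided by the length of the principal GENCODE transcript and scaled to a common total. The median over the 14 constitutive 20S subunits was 249 ± 8.02 TPM in photoconverted and 220 ± 28.7 TPM in control tumors, and over the 17 subunits of the 19S cap it was 184 ± 6.54 and 167 ± 17.6 TPM (SD, n = 4). The median over the 5 immunoproteasome genes was 355 ± 13.8 and 369 ± 20.6 TPM. Assembly factors were far lower, at 50.6 ± 2.02 and 50.9 ± 4.94 TPM. The highest of the 48 genes was Psma7 with a mean of 613 TPM over the 8 tumors, followed by Psmb10 with 521 TPM. All immunoproteasome genes except Psmb9, with 132 TPM, stood above the median of the constitutive core. The lowest were Psmc3ip with 17.8 TPM, Psmf1 with 28.1 TPM and Psmd9 with 38.2 TPM. The order within the core depends on the transcript chosen for the length, which was not known for these tumors.

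The 48 genes varied between libraries within each group. The ratio of the highest to the lowest tumor had a median of 1.47 and reached 2.85 in Psma4. Mean log2 CPM in the 3 libraries with high Rn45s shares minus that in the other 5 ranged from −0.88 in Psma4, −0.78 in Psma2 and −0.58 in Psma3 to 0.75 in Psmb10, 0.81 in Psmd9, 0.90 in Psmg3 and 0.97 in Psmb5. The sign was the same within the photoconverted and within the control group for 40 of the 48 genes. Of the 48, 23 were higher in the libraries rich in Rn45s, beside 47.4% of all genes. By class, 0 of 7 alpha subunits, 5 of 5 immunoproteasome genes and 3 of 3 constitutive catalytic subunits were higher. The other classes were split, with 1 of 4 structural beta subunits, 2 of 6 ATPases, 6 of 11 non-ATPase subunits, 4 of 7 assembly factors and 1 of 3 other regulators higher. The leukocyte marker sum was 277 to 557 CPM in these 3 libraries and 560 to 809 CPM in the others, and Ptprc, which encodes the leukocyte antigen CD45, was 50.5 to 91.0 CPM and 115 to 153 CPM. Of the 18 leukocyte markers, 2 were higher on average in these 3 libraries, and the median log2 difference was −1.01. The sums nearly met, and Cd8a and Nkg7 were highest of all tumors in control tumor 2 (5.78 and 16.6 CPM). Cd8a was 1.64 CPM in photoconverted tumor 4 and 0.73 CPM in control tumor 4. The part of leukocyte content in the immunoproteasome levels was not tested.

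The difference between libraries moved with the GC content of the transcript. Across the 48 genes the shift correlated with GC content with Pearson's r of 0.64 and Spearman's rho of 0.60, and across 13868 genes with r of 0.52. The points are genes of the same 8 libraries and not independent replicates. Of 25 genes with a GC content under 50%, 19 were lower in the libraries rich in Rn45s, and of 23 genes with a higher GC content, 17 were higher. The class medians of GC content were 45.0% for the alpha ring, 55.8% for the constitutive catalytic subunits and 55.3% for the immunoproteasome. The change between photoconverted and control tumors correlated with GC content as well, with r of −0.57 across the 48 genes and −0.20 across 13868 genes. Of the libraries, 2 of 4 control and 1 of 4 photoconverted were rich in Rn45s, and the part of GC content in the lean of the alpha ring was not tested. The median change of the alpha ring was 0.20 with the log2 Rn45s share as a covariate and 0.08 in the 5 tumors with low Rn45s shares.

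**Figure D5:**
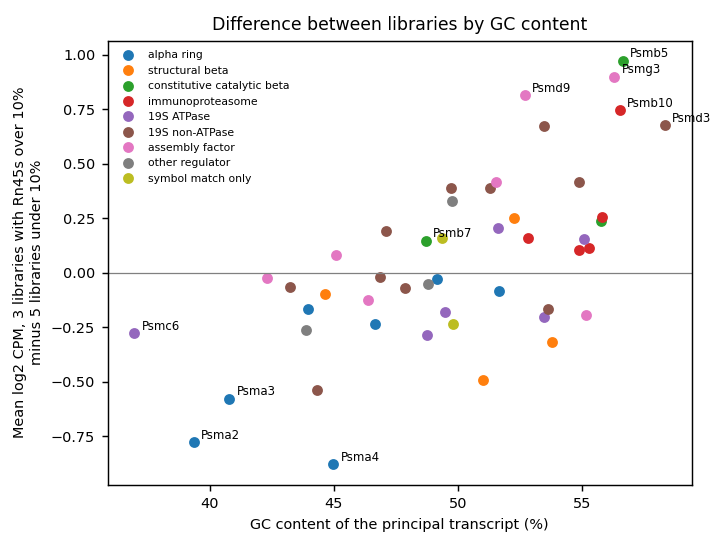
Mean log2 CPM in the 3 libraries with an Rn45s share over 10% minus the mean in the 5 libraries under 10% (vertical axis) against the GC content of the principal transcript in percent (horizontal axis) for the 48 genes, colored by class. Psma4, Psma2 and Psma3 lie lowest and Psmb5 and Psmg3 highest, and Pearson's r over the genes is 0.64.

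Other genes of the ubiquitin-proteasome pathway gave no called gene. Of 31 listed symbols 27 were in the table under that name and were tested, 17 higher and 10 lower, with a median change of 0.04. The 4 with the smallest p were Ubqln1, a shuttle factor (log2 change 0.33 ± 0.16, SE), Ufd1l, a cofactor of the segregase Vcp (0.19 ± 0.11, SE), Zfand2a, a stress-induced proteasome adapter (0.34 ± 0.20, SE), and Akirin2, which brings proteasomes into the nucleus (0.16 ± 0.12, SE). Only Ufd1l of this list had non-overlapping groups, at 29.2 to 30.5 CPM in photoconverted tumors and 23.8 to 28.4 CPM in the controls (1 of 27 genes, beside 0.684% of all genes). Pomp, the maturation factor of the core, averaged 110 ± 12.5 and 93.6 ± 22.6 CPM, with control tumor 2 lowest at 62.4 CPM. Nfe2l1, the transcription factor that raises proteasome genes when proteasome activity falls, averaged 217 ± 43.7 and 247 ± 49.8 CPM (SD, n = 4). Neither differed beyond the spread (edgeR, adjusted p = 0.999 for both).

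The antigen processing and interferon gamma axis likewise held no called gene among 15 tested, with 8 higher, 7 lower and a median change of 0.05. Without control tumor 2, 13 of the 15 were higher with a median of 0.15, and in the 5 tumors with low Rn45s shares 12 were higher with a median of 0.20. The smallest p belonged to Ifng, the interferon itself, at 2.3, 1.0, 2.9 and 0.4 CPM in photoconverted tumors and 1.3, 0.5, 1.0 and 0.2 CPM in the controls (log2 change 1.10 ± 0.64, SE; edgeR, adjusted p = 0.999). The groups overlapped and the level was low throughout. Nlrc5, a transactivator of MHC class I genes, changed by 0.27 ± 0.18 (SE), and Jak2, a kinase of the interferon gamma receptor, by 0.37 ± 0.26 (SE). Irf1, an interferon-induced factor that acts on immunoproteasome promoters, averaged 222 ± 56.8 CPM in photoconverted tumors and 202 ± 30.5 CPM in the controls. Tap1, a peptide transporter subunit whose gene lies between Psmb9 and Psmb8 on chromosome 17, averaged 426 ± 33.4 and 430 ± 121 CPM (SD, n = 4). Like Psmb8, Psmb9 and Psmb10, Tap1 was highest in control tumor 2, at 588 CPM.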

How the data were processed

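RNA from 8 whole tumors, 4 photoconverted and 4 control, was sequenced as stranded total RNA libraries (the labels name a SMARTER kit and the methods a TruSeq kit). The submitters' processing notes name CASAVA, FastQC, Trim Galore, HISAT2, featureCounts, DESeq2 and the mm10 build, and the annotation is not given in the sources used here. The authors deposited raw counts per gene and a table of normalized signal, the raw counts divided by size factors of 0.416 to 1.77. All of its values (100%, tolerance 1e-06) gave whole reads again, and edgeR on those reads called 0 genes. Groups came from the sample labels, and 1 tumor was 1 mouse. No pair of libraries within a group was a duplicate (smallest chi-square per degree of freedom 23.8), and pairs across the groups were not checked for this.

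Counts were tested with edgeR 4.0.16 in R 4.3.3 (TMM, filterByExpr by group, quasi-likelihood test), with Benjamini-Hochberg adjustment over 14468 genes and a threshold of 0.05, and tested on simulated data beforehand. DESeq2 1.42.0 was an alternative. log2 CPM used a prior count of 2 and ratios an offset of 0.5. Lengths and GC content came from GENCODE M21, and promoter windows from RefSeq GRCm38.p6. Replicate numbers 1 to 4 are shared by the groups, and the labels state no pairing. Deviations from the group means correlated across genes with r of 0.107 to 0.623 between same-numbered tumors (mean 0.433). Different numbers gave −0.600 to 0.482 (mean −0.134), a mean that centering on the group means pushes below 0. These correlations therefore cannot show a pairing, and a fit with the number as a block was made as an alternative. The members, classes and lists were chosen with earlier results of these data known. The named genes were the 5 immunoproteasome genes, the constitutive catalytic subunits, the assembly factors, the 8 other members with the smallest p, the extremes per length, and in each pathway list up to 4 genes with the smallest p plus Pomp, Nfe2l1, Irf1 and Tap1, and 1 item is not reported here. Psma2, Psma4, Psmb3, Psmc4 and Psmd11 and single genes of the marker lists were chosen after their values were seen. Other alternatives covered normalization, filtering, dispersion, Rn45s as a covariate or left out, the 5 tumors with low Rn45s shares, and each tumor left out. Those with recovered reads and with DESeq2 plus the block were added after the data were seen.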

Additional observations from a re-analysis of the deposited data

Results flagged for a closer look

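The following 6 values of proteasome genes lay far from the other 3 tumors of their group, by a gap larger than Dixon's critical share of the group's range for 4 samples. Among 102 groups examined, chance would give 5.1 such values, about 1 in 20, if the groups were independent. They come from the same 8 libraries, so this number cannot show whether the flagged values arose by chance. Of the 6, 5 were low values in control tumor 2. Psmc1 was 94.7 CPM there with the nearest control at 130 CPM, Psmc4 was 69.3 CPM with the nearest at 97.7 CPM, and Psmb3 was 67.3 CPM with the nearest at 113 CPM. Psma6 was 72.4 CPM with the nearest control at 101 CPM, and Psma1 was 88.3 CPM with the nearest at 106 CPM. The sixth was Psmd11 at 119 CPM in photoconverted tumor 1, where the nearest photoconverted tumor had 106 CPM.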

How the results depend on the processing

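In none of the alternatives was any of the 48 genes called, and the count of called genes stayed at 0 in both pathway lists. In a fit with replicate numbers as blocks, the count of called proteasome genes was 0, the smallest adjusted p among them was 0.797 (edgeR), and the median changes were 0.15 for the 20S core, 0.09 for the 19S cap and −0.04 for the immunoproteasome. The block changed no call, and it turned the direction of Psmb7 (log2 change 0.0058) and Tap1 (0.026), as did DESeq2 with the block (0.0079 and 0.028). DESeq2 called 24 genes of the whole table, or 94 with the block, and edgeR with the block 0.

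All reversals were of changes smaller than their standard error (for ratios, than the SD between tumors), and their cause was not tested. Psmb7 also turned under DESeq2's test (0.0018), with DESeq2's size factors (0.0018), without a filter (0.0042) and without Rn45s (0.00058). With the Rn45s share as a covariate the log2 changes were 0.0026 for Psmb10, 0.012 for Psmb6, 0.022 for Psmb7, 0.017 for Psmd9, 0.064 for Psmg3 and 0.078 for Tap1. In the 5 tumors with low Rn45s shares they were 0.064 for Psme2, 0.060 for Psmb8, 0.23 for Psmb10, 0.089 for Psmb6, 0.10 for Psmb5, 0.088 for Psmb7, −0.048 for Psmg4, 0.031 for Psmg1, 0.12 for Psmd9, 0.28 for Psmg3, −0.048 for Psmd10 and 0.25 for Tap1, and the differences of log2 ratios were −0.023 for Psmb8 to Psmb5 and 0.16 for Psmb10 to Psmb7. Leaving out each tumor in turn moved the differences of log2 ratios from −0.0091 to 0.33 for Psmb8 to Psmb5, from −0.10 to 0.15 for Psmb9 to Psmb6 and from −0.29 to 0.14 for Psmb10 to Psmb7. It moved the log2 changes from −0.055 to 0.062 for Psme1, from −0.11 to 0.027 for Psme2, from −0.052 to 0.12 for Psmb9, from −0.15 to 0.034 for Psmb8, from −0.37 to 0.10 for Psmb10, from −0.51 to −0.035 for Psmb5, from −0.073 to 0.10 for Psmb6, from −0.048 to 0.091 for Psmb7, from −0.0011 to 0.11 for Psmg4, from −0.20 to 0.052 for Psmg1, from −0.10 to 0.047 for Psmg2, from −0.36 to 0.056 for Psmd9, from −0.34 to 0.24 for Psmg3, from −0.0036 to 0.050 for Psmd10, from −0.025 to 0.27 for Irf1 and from −0.16 to 0.17 for Tap1. Between 24 genes (without photoconverted tumor 4) and 41 genes (without control tumor 4) of the 48 were then higher in photoconverted tumors. Total counts of 12576615 to 35844417 per tumor limit genes with few counts, such as Psmc3ip with as few as 65 in 1 tumor, and 4 tumors per group limit all others.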
